A study of Mus musculus with 18 samples.

Results

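The interaction of S-adenosyl methionine (SAM) with transforming growth factor β (TGFβ) is the TGFβ effect measured in SAM-treated cells minus the TGFβ effect measured without SAM. It was chosen as a contrast of 4 groups, (TGFβ with SAM minus SAM) minus (TGFβ minus control), and uses 12 of the 18 libraries of the series. All groups are cells of im-TEC, a conditionally immortalized mouse line of kidney tubular epithelium, treated for 48 h. Control cells received neither agent, the TGFβ group received TGFβ at 10 ng/mL, the SAM group SAM at 0.5 mM, and the TGFβ+SAM group both, with 3 libraries per group. The remaining 6 libraries received nicotinamide (NAM, 1 mM) with or without TGFβ and served here only for comparison. Per the labels, the line grows with interferon gamma to induce the SV40 large T antigen, and the cells were moved to a warmer incubator without interferon gamma before seeding. It is a single immortalized line in plates, and nothing says that the 3 libraries of a group came from separate cultures, so p-values measure only the spread between these libraries.

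TGFβ binds a receptor kinase pair that phosphorylates SMAD transcription factors, and in kidney tubule cells it raises matrix, contractile and adhesion genes and lowers transporters of the differentiated tubule. SAM is the methyl donor of nearly all cellular methyltransferases, among them nicotinamide N-methyltransferase (Nnmt), which spends SAM to methylate nicotinamide. Interferon-stimulated genes are switched on by a transcription factor complex that binds the interferon-stimulated response element (ISRE), whereas contractile genes carry CArG boxes bound by serum response factor.

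The libraries read transcripts near their 3′ ends. Each of the 12 held 4171170 to 7088702 reads in genes. Levels are CPM, a gene's reads relative to the library size corrected by trimmed-mean factors. Differences are fitted log2 values ± SE from edgeR's quasi-likelihood test over 13469 genes, called at a Benjamini-Hochberg adjusted p under 0.05. The SE was derived as the size of the fitted log2 value divided by the square root of the F statistic. Of the tubule markers listed, Pax8, Cdh16 and Aqp1 had reads, while Cdh1, Epcam and Krt18 were at or near 0 in every group. The treatment tags of SAM replicates 2 and 3 conflict with their titles, from which the groups were taken. The library numbers of the 6 SAM libraries form a block of their own, so separate preparation, if there was any, and SAM cannot be told apart. Each TGFβ effect was taken within its own block, so a constant shift between blocks cancels in the interaction. A difference between blocks in the response to TGFβ does not cancel and cannot be told apart from the interaction. On principal components of the 12 libraries, TGFβ+SAM replicates 1 and 2 lay at -41.01 and 38.12 on the third axis, which holds 6.63% of the variance, with the other 10 between -2.16 and 2.77.

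The interaction was called for 193 genes, 1.43% of those tested. It was positive for 108 (0.802%), meaning a more positive TGFβ effect with SAM, and negative for 85 (0.631%). The change was at least 2-fold for 48 and 30 of them. Contractile, matrix and direct TGFβ target genes such as Cnn1, Postn and Pmepa1 were among the positive calls. Interferon-stimulated genes were among the negative calls, and Ifit3 and Ifit3b rose under TGFβ alone and fell under TGFβ when SAM was present. Without SAM, TGFβ changed 2619 genes (19.4%), and with SAM 3824 (28.4%). A count of calls in each arm does not test the difference, which the interaction does. Leaving out control replicate 2 reduced the 85 negative calls to 52, and leaving out TGFβ+SAM replicate 2 reduced them to 54. Leaving out TGFβ+SAM replicate 1 gave 79 positive and 66 negative calls. Leaving NAM replicate 3 and TGFβ+NAM replicate 1, which the interaction does not use, out of the shared estimate of spread raised the positive calls to 166. Without SAM replicates 2 and 3, which leaves 1 SAM library assumed to vary like the other groups, 41 positive and 22 negative calls were made, and 57 of the 193 genes remained called. By limma-voom 158 remained, and 107 with NAM and TGFβ+NAM libraries as the reference in place of control and TGFβ. Calls that end under any of these are given with each gene.

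**Figure D1:**
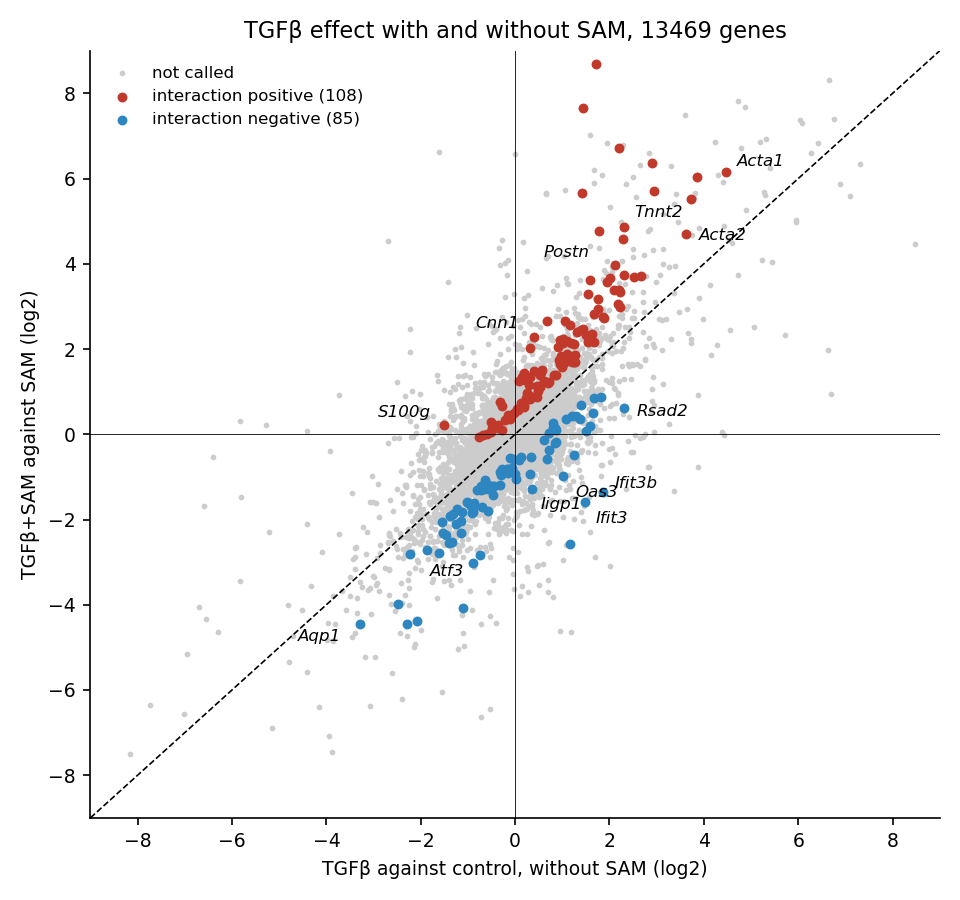
Fitted log2 TGFβ effect without SAM (horizontal) against the effect with SAM (vertical), 1 point per tested gene, with the dashed line where both are equal. The 108 genes called positive (red) lie above the line and the 85 called negative (blue) below it, with Ifit3 and Ifit3b to the right of 0 on the horizontal axis and under 0 on the vertical one.

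The upstream sequences of called genes at both ends are shown first, since the gene groups differ in the motifs they hold. The 250 bases before each start were searched in RefSeq (GRCm38.p6), over every start listed for a gene, and 80 of the 108 positive and 68 of the 85 negative genes had such a window. The ISRE core was searched as GAAANNGAAA on both strands. It occurred in 3.46% of all 27025 genes with a window and in 3.1% of the 9296 tested genes with one. It was found in 13 of the 68 negative genes (19.1%) and in 1 of the 80 positive genes (1.25%). Among interferon list genes it was found in 7 of 10 called and in 12 of 27 not called. In these stretches the capitals mark the ISRE core, which reads as its reverse complement where it lies on the other strand:
Ifit3, chr19:34583333-34583456, + strand: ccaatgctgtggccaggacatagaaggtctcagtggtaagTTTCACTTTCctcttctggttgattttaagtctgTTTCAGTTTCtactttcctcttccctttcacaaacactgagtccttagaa
Ifit3b, chr19:34607729-34607852, + strand: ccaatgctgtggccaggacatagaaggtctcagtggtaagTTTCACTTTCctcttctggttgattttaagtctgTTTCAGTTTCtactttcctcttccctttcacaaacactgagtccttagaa
Rsad2, chr12:26456523-26456612, - strand: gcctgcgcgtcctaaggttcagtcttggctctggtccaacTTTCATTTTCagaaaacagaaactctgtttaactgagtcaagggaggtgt
Oas3, chr5:120777685-120777774, - strand: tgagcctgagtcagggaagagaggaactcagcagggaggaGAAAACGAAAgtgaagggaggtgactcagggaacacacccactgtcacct
The Ifit3 and Ifit3b stretches are identical in 124 of 124 bases, with both cores between 112 and 156 bases before the Ifit3 start. The CArG box, whose consensus is given by name only, occurred in 1.62% of all genes and 1.42% of tested genes. It was found in 5 of the 80 positive genes (6.25%) and 0 of the 68 negative genes. Among contractile list genes it was found in 3 of 10 called and 5 of 22 not called, so it did not mark the called members alone. In the 3 called contractile genes with a match the capitals mark the CArG box, which reads on both strands:
Acta1, chr8:123894799-123894888, - strand: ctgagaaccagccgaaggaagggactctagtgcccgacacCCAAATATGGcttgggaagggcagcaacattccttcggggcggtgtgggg
Cnn2, chr10:79988504-79988593, + strand: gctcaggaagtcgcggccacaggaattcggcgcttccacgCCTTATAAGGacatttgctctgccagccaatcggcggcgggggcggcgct
Myl9, chr2:156775263-156775352, + strand: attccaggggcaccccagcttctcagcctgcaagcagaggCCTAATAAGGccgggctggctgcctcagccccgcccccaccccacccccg
The SMAD box CAGAC, searched on both strands, occurred in 51.2% of positive genes, 47.1% of negative genes, 45.8% of all genes and 45.3% of tested genes. The AP-1 site TGANTCA was found in 10% of positive, 19.1% of negative, 7.82% of all and 5.38% of tested genes. The E-box CACGTG was found in 10% of positive, 7.35% of negative and 9.98% of tested genes. For the NF-κB site these shares were 7.5%, 7.35% and 5.48%. A match describes letters in the window and is not a binding site.

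Among the positive calls, the contractile and cytoskeletal list gave 11 of 37 tested members (29.7%), all positive, against 0.802% of all tested genes. Its median interaction was 0.38 against -0.003 over all tested genes. The list's median TGFβ effect was 0.75 without SAM and 1.34 with SAM. Its members lay lower in SAM cells than in control cells (median -0.49) and level in TGFβ+SAM against TGFβ cells (median -0.00). The called genes encode actins (Acta1, Acta2), calponins (Cnn1, Cnn2), tropomyosins (Tpm1, Tpm4), myosin light chain (Myl9), transgelin (Tagln), filamin A (Flna) and the actin-bundling or scaffolding proteins Palld and Pdlim7. Without SAM replicates 2 and 3 the count was 7.

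Tnnt2, the tropomyosin-binding troponin of striated muscle, was not on the contractile list and had the second largest positive interaction under the naming rule. It measured 36.9, 42.8 and 35.6 CPM in control, 200.0, 164.8 and 206.4 with TGFβ, 11.5, 8.75 and 6.55 with SAM, and 237.8, 292.0 and 255.4 with both. The 4 groups did not overlap: SAM libraries were lowest and TGFβ+SAM libraries highest. TGFβ raised Tnnt2 by 2.30 (log2) without SAM and 4.86 with SAM, an interaction of 2.55 ± 0.19 (adjusted p = 2.76e-12, edgeR).

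Acta2, smooth muscle α-actin and the usual marker of myofibroblast-like cells, measured 89.1, 89.8 and 72.3 CPM in control and 59.7, 48.0 and 43.5 with SAM. It reached 995.8, 1013 and 1091 CPM with TGFβ and 1346, 1355 and 1260 with both. No 2 groups overlapped, and the interaction was 1.09 ± 0.14 (adjusted p = 1.44e-06, edgeR). Acta1 had an interaction of 1.68 ± 0.26 (adjusted p = 6.86e-05), but near-identical actin copies could share reads, and the sum of Acta1, Acta2 and Actg2 moved by 3.75 without SAM and 4.88 with SAM, a difference of 1.13. Cnn1, calponin 1, measured 30.7, 30.2 and 28.2 CPM in control, 34.9, 44.3 and 38.1 with TGFβ, 5.32, 4.22 and 4.66 with SAM, and 21.3, 24.3 and 24.1 with both. The TGFβ+SAM libraries lay above SAM and below control, and the interaction was 1.89 ± 0.24 (adjusted p = 1.88e-06), while the TGFβ effect without SAM missed the threshold (0.40, adjusted p = 0.0601). Myl9 (1.64 ± 0.34), Tagln (1.12 ± 0.20), Cnn2 (0.64 ± 0.12), Pdlim7 (0.68 ± 0.13) and Palld (0.55 ± 0.11) stayed called in all 12 fits that left out 1 library. Tpm1 lost its call without control replicate 1, TGFβ replicate 1, TGFβ replicate 2 or SAM replicate 3 (adjusted p 0.0541 to 0.0636), and Tpm4 without TGFβ replicate 2 (0.0692) or SAM replicate 3 (0.0661). Flna (0.41 ± 0.11) was lost in 8 of the 12 fits, all except those without TGFβ replicate 1, SAM replicate 1, SAM replicate 2 or TGFβ+SAM replicate 3, with adjusted p up to 0.155. Without SAM replicates 2 and 3, Tpm1 (adjusted p 0.191), Tpm4 (0.0847), Flna (0.328) and Pdlim7 (0.0558) were not called, nor was Flna with the NAM reference (0.118).

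**Figure D2:**
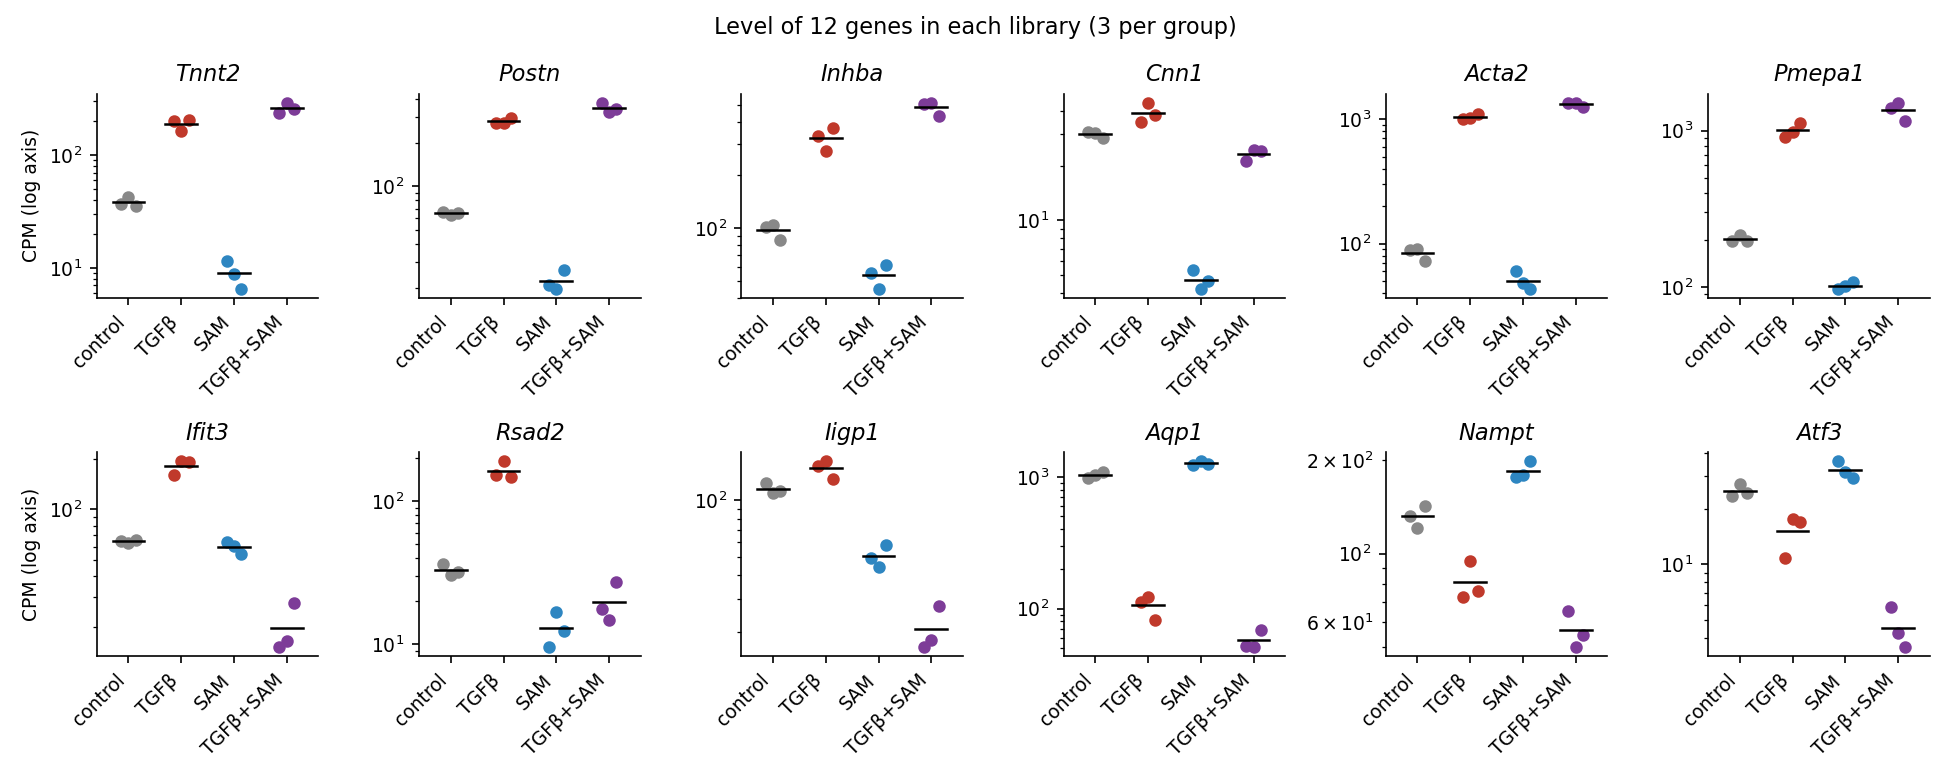
Level of 12 genes in each library (CPM, log axis), with 3 points per group and a bar at the group mean. Tnnt2, Postn, Inhba and Cnn1 are lowest in the SAM libraries, while Ifit3 is highest in TGFβ libraries and lowest in TGFβ+SAM libraries.

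Of the direct TGFβ target list, 5 of 20 tested members (25%) were called, all positive, against 0.802% of all tested genes. The list's median interaction was 0.36, and 4 of the called members are described here. Pmepa1, a membrane inhibitor of SMAD signalling, measured 196.9, 215.2 and 196.8 CPM in control, 97.7, 100.8 and 107.2 with SAM, 915.9, 982.6 and 1114 with TGFβ, and 1393, 1508 and 1159 with both. Its groups did not overlap, and its interaction was 1.43 ± 0.13 (adjusted p = 1.65e-10). Ccn2, a matricellular growth factor, had 1.17 ± 0.12 (adjusted p = 5.47e-09), and Ccn1, of the same family, 0.62 ± 0.10 (adjusted p = 0.000101). Ltbp1, which holds latent TGFβ in the matrix, had 0.89 ± 0.24, and its call ended in 10 of the 12 fits, all except those without TGFβ replicate 3 or TGFβ+SAM replicate 3 (adjusted p up to 0.154). It also ended by limma-voom (0.113), with the NAM reference (0.0786) and without SAM replicates 2 and 3 (0.127). Inhba, the subunit of the TGFβ family ligand activin A, rose from 101.3, 103.4 and 86.0 CPM in control to 334.5, 274.0 and 372.7 with TGFβ, and from 55.3, 45.2 and 61.4 with SAM to 511.3, 517.3 and 434.2 with both. Every TGFβ+SAM library exceeded every TGFβ library, and its interaction was 1.43 ± 0.16 (adjusted p = 4.85e-08). On the CPM scale the TGFβ-induced differences are subtracted. There the sign was the other one for 7 of the 108 positive calls and for 0 of the 85 negative calls. Among the 7 were Tpm1 (-16.5 CPM), Col5a1 (-0.93 CPM) and Adcy7 (-5.20 CPM), which are described in other paragraphs.

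Matrix genes gave 6 of 38 tested members (15.8%), all positive, against 0.802% of all tested genes. The list had a median interaction of 0.37 and median TGFβ effects of 0.52 without and 0.91 with SAM. Postn, a matricellular protein of wound and fibrotic tissue, measured 66.4, 63.2 and 65.0 CPM in control, 272.1, 273.4 and 295.8 with TGFβ, 20.8, 19.7 and 26.4 with SAM, and 376.1, 324.0 and 340.6 with both. Its groups did not overlap and its interaction was 1.85 ± 0.15 (adjusted p = 7.2e-12). The largest interaction under the naming rule was that of Col4a4, a basement membrane collagen chain, at 2.78 ± 0.50 (adjusted p = 0.000718), on SAM levels of 1.52, 0.625 and 0.345 CPM against 6.34, 7.44 and 3.38 in control. The Col4a4 call ended by limma-voom (adjusted p 0.0846) and without SAM replicates 2 and 3 (1.97, adjusted p 0.181). Loxl1, a collagen crosslinking enzyme, had 0.71 ± 0.13 and was lower in TGFβ+SAM than in TGFβ libraries (log2 -0.54, adjusted p = 9e-05). Col5a1 (0.72 ± 0.15) and fibronectin, Fn1 (0.46 ± 0.10), were called as well, but not with the NAM reference (adjusted p 0.131 and 0.089) or without SAM replicates 2 and 3 (0.092 and 0.122). P4ha1, a collagen prolyl hydroxylase, was called at 0.59 ± 0.14 and lost the call without control replicate 1 (adjusted p 0.0718), SAM replicate 1 (0.0599) or SAM replicates 2 and 3 (0.0558). The type I collagen chains were not called: Col1a1 had 0.44 ± 0.37 (adjusted p = 0.746) and Col1a2 1.41 ± 0.47 (adjusted p = 0.16). Without SAM replicates 2 and 3, 2 matrix genes were called, Postn and Loxl1.

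Other cell types were checked with marker lists beside these groups. The summed level of 13 fibroblast markers ran from 6.77 to 8.73 CPM in control, 124 to 134 with TGFβ, 2.66 to 3.18 with SAM and 67.4 to 76.9 with both, nearly all from Col1a1 and Col1a2. Fap, Thy1 and Lum had 0 reads in all 12 libraries, and Pdgfra had reads only in TGFβ+SAM libraries, 3 in all. Bulk RNA cannot tell fewer cells of a type from less RNA per cell. Endothelial markers summed to 23.8 to 35, 36.9 to 44.4, 18.7 to 20.8 and 34.8 to 35.9 CPM in the same order of groups, mostly Ehd3, with Cdh5 at 0 reads. Podocyte markers summed to 312 to 339, 322 to 363, 271 to 312 and 282 to 297 CPM, with Nphs1 at 0 reads. The part of other cells in these results was not tested.

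Other genes with large positive interactions had varied roles. Ccl17, a T cell chemokine, had 1.97 ± 0.28 (adjusted p = 1.21e-05). Fam198b, a Golgi glycoprotein, had 1.74 ± 0.33 (adjusted p = 0.00124), and Pcolce2, an enhancer of procollagen processing, 1.67 ± 0.36 (adjusted p = 0.0068). Adcy7, an adenylyl cyclase, had 2.30 ± 0.57 and lost the call without control replicate 2, TGFβ replicate 2, SAM replicate 2, SAM replicate 3 or TGFβ+SAM replicate 2 (adjusted p 0.0555 to 0.12). Il1rl1, the IL-33 receptor, had 2.17 ± 0.52 and lost it without control replicate 1, control replicate 2, SAM replicate 1 or SAM replicate 3 (adjusted p 0.0911 to 0.12). Tnni2, a troponin inhibitory subunit, had 1.61 ± 0.36 and lost it without SAM replicate 2 (0.0621). Adamts4, an aggrecan-degrading protease, had 1.14 ± 0.21 (adjusted p = 0.000774), the only member called among 21 proteases and inhibitors, but not with the NAM reference (0.0518). The calls of Pcolce2, Adcy7, Il1rl1 and Tnni2 each ended by limma-voom (adjusted p 0.0921, 0.28, 0.283 and 0.0784). They ended with the NAM reference too (0.0862, 0.23, 0.414 and 0.159) and without SAM replicates 2 and 3 (0.358, 0.564, 0.0558 and 0.166).

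S100g, the calcium-binding protein calbindin-D9k, alone among the 15 largest positive interactions had a negative TGFβ effect without SAM. It measured 15.36, 15.44 and 15.03 CPM in control, 6.74, 4.24 and 5.16 with TGFβ, 20.1, 21.9 and 18.8 with SAM, and 21.1, 20.2 and 29.0 with both. The TGFβ libraries lay below all others, and SAM and TGFβ+SAM libraries overlapped. Its TGFβ effect was -1.50 without SAM and 0.21 with SAM (adjusted p = 0.591), an interaction of 1.72 ± 0.39 (adjusted p = 0.0106), a call that ended without TGFβ replicate 2 (0.0532). For Ldha, lactate dehydrogenase A, the TGFβ effect was -0.67 without SAM and -0.02 with SAM (interaction 0.65 ± 0.13, adjusted p = 0.00409). Lrp2, the endocytic receptor megalin of the proximal tubule, had TGFβ effects of -0.51 and 0.29, an interaction of 0.80 ± 0.17 (adjusted p = 0.00661). The calls of S100g (0.107), Ldha (0.0788) and Lrp2 (0.102) ended without SAM replicates 2 and 3.

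Seen from the SAM side, the positive and negative calls differed in the median SAM effect of each arm. For the 108 positive genes the median SAM effect was -0.76 without TGFβ and 0.11 with TGFβ, and 103 of them had a negative SAM effect without TGFβ. The median TGFβ effect of those genes was 0.99 without SAM and 1.79 with SAM, and 92 had a positive TGFβ effect that was larger with SAM. For the 85 negative genes the median SAM effect was 0.30 without TGFβ and -0.65 with TGFβ. Of these genes 30 had a negative SAM effect without TGFβ and 76 had one with TGFβ. The SAM effect was larger in size with TGFβ for 54 and without TGFβ for 31, against 19 and 89 of the positive genes. For the negative genes the median TGFβ effect was -0.31 without SAM and -1.21 with SAM. Among them 53 had a fall that was larger with SAM, 16 a smaller rise, and 16 opposite directions. These are counts of fitted signs in the genes chosen by the interaction and carry no test of their own.

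**Figure D3:**
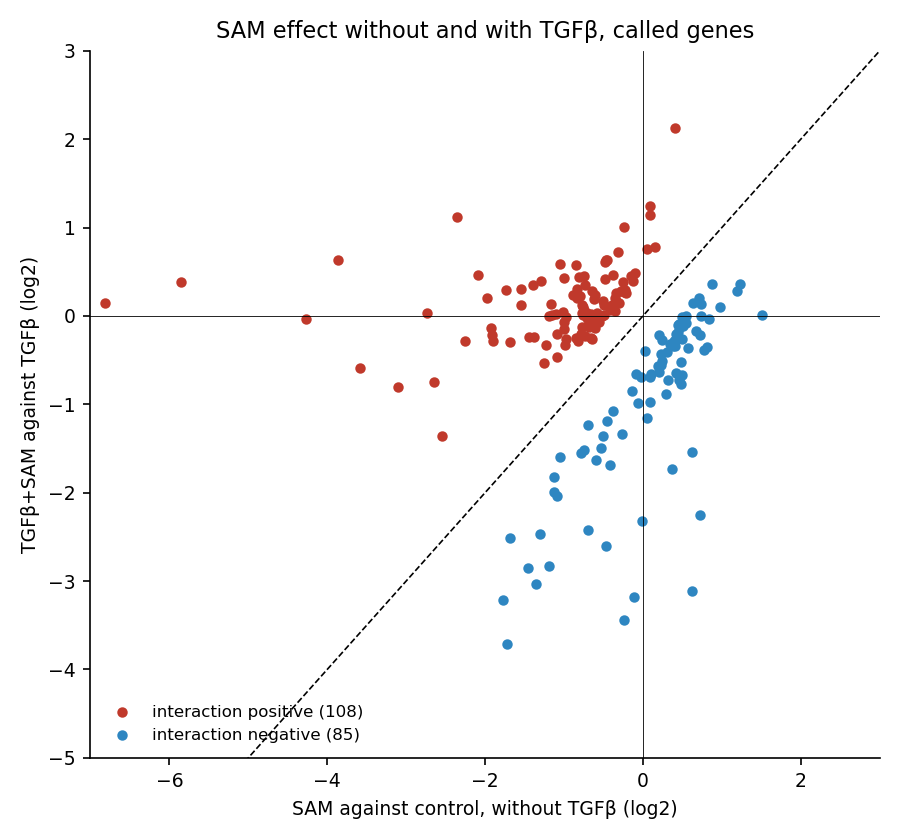
Fitted log2 SAM effect without TGFβ (horizontal) against that with TGFβ (vertical) for the 193 called genes, with the dashed line where both are equal. Positive calls (red) spread to the left along a vertical value near 0, with a median of -0.76 on the horizontal axis, and negative calls (blue) spread downward.

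Interferon-stimulated genes gave the largest set of negative calls: 13 of 53 tested members (24.5%), all negative, against 0.631% of all tested genes. The list's median interaction was -0.58. TGFβ without SAM raised 47 of the 53 and lowered 0, against 9.7% and 9.74% of all tested genes. With SAM it raised 32 and lowered 8, against 14.2% in each direction, and the list's median TGFβ effect went from 1.38 to 0.82. The mean log2 CPM over the 53 genes was 5.02 to 5.23 in control, 6.37 to 6.46 with TGFβ, 3.69 to 3.93 with SAM and 4.29 to 4.65 with both. Replicate 3 of TGFβ+SAM held the highest of those 3 values, and without it 18 members were called negative. Without SAM replicates 2 and 3 there were 6.

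Ifit3, an antiviral protein with tetratricopeptide repeats, lies at chr19:34583531-34588731 on the + strand of GRCm38. It measured 64.8, 63.1 and 65.9 CPM in control, 159.1, 192.6 and 191.9 with TGFβ, 64.2, 60.5 and 54.5 with SAM, and 15.2, 16.5 and 27.8 with both. SAM and control libraries overlapped, all TGFβ libraries were higher, and all TGFβ+SAM libraries were lower. TGFβ raised Ifit3 2.80-fold without SAM and lowered it 2.99-fold with SAM, an interaction of -3.07 ± 0.19 (adjusted p = 1.32e-14). Its neighbour and near-copy Ifit3b, on chromosome 19 as well, had -3.21 ± 0.26 (adjusted p = 2.58e-11). Because reads could be split between the copies, their sum was taken: it averaged 98.2 CPM in control, 303 with TGFβ, 88.3 with SAM and 30.9 with both. The sum's interaction was -3.14, a value that does not depend on how reads were divided between the copies. Ifit2 had -1.25 ± 0.20 (adjusted p = 0.000164). Acta2, whose interaction was positive, lies on the same chromosome at chr19:34241090-34255590.

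Oas3, Iigp1 and Uba7 also had called TGFβ effects in opposite directions. Iigp1, an interferon-inducible GTPase, measured 123.3, 110.0 and 112.0 CPM in control, 152.7, 161.4 and 130.2 with TGFβ, 49.2, 44.5 and 57.8 with SAM, and 16.7, 18.1 and 27.5 with both. No groups overlapped, and its interaction was -1.64 ± 0.19 (adjusted p = 1.3e-07). Oas3, which makes the oligoadenylates that activate RNase L, had -2.0 ± 0.43 (adjusted p = 0.00661), and Uba7, which charges the ubiquitin-like protein ISG15, -1.27 ± 0.26 (adjusted p = 0.00384). Rnf213, an interferon-induced ubiquitin ligase, had -1.73 ± 0.25 (adjusted p = 2.36e-05). Its TGFβ effect was 1.25 without SAM and -0.48 with SAM, and the latter missed the threshold (adjusted p = 0.0569). The Oas3 call ended by limma-voom (adjusted p 0.0874), with the NAM reference (-1.35, 0.129) and without SAM replicates 2 and 3 (-1.44, 0.399). Without those SAM libraries Rnf213 (-1.02, 0.105) and Uba7 (-1.27, 0.0545) were not called either, whereas Iigp1 was.

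Rsad2, the antiviral enzyme viperin, kept a rise but a smaller one. It measured 36.6, 30.5 and 32.3 CPM in control, 153.2, 190.3 and 146.7 with TGFβ, 9.57, 16.7 and 12.4 with SAM, and 17.5, 14.8 and 27.2 with both. TGFβ+SAM and SAM libraries overlapped. TGFβ raised it by 2.30 without SAM and 0.63 with SAM, an interaction of -1.68 ± 0.25 (adjusted p = 3.53e-05), a call that ended without SAM replicates 2 and 3 (-1.23, adjusted p 0.0815). Parp14, a mono-ADP-ribosyltransferase, had -0.95 ± 0.16 (adjusted p = 0.000304) and stayed called in all 12 fits and without both of those SAM libraries.

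Further members lost their calls in fits that left out 1 library. Stat2, a transcription factor of the pathway, had -1.02 ± 0.24 and lost the call without control replicate 1, TGFβ replicate 2, SAM replicate 1, SAM replicate 2 or TGFβ+SAM replicate 2 (adjusted p 0.0549 to 0.0731). Sp100, a nuclear body protein, had -1.16 ± 0.29 and lost it without control replicate 2, TGFβ replicate 2, SAM replicate 3, TGFβ+SAM replicate 1 or TGFβ+SAM replicate 2 (0.0718 to 0.23). Trim30a, with -0.82 ± 0.20, lost it without control replicate 2, TGFβ replicate 1, SAM replicate 1 or TGFβ+SAM replicate 2 (0.0793 to 0.131), and the GTPase Igtp, with -0.73 ± 0.17, without control replicate 2, control replicate 3, TGFβ replicate 2 or TGFβ+SAM replicate 1 (0.0534 to 0.0759). Outside the list, Ifi203, an interferon-inducible DNA sensor, had -1.43 ± 0.35 and lost it without control replicate 3, TGFβ replicate 2, SAM replicate 1 or TGFβ+SAM replicate 3 (0.0541 to 0.133). Ddx60, an antiviral helicase, had -1.41 ± 0.33 and lost it without control replicate 3, SAM replicate 1, SAM replicate 2, TGFβ+SAM replicate 1 or TGFβ+SAM replicate 2 (0.0522 to 0.0999). None of these 6 was called without SAM replicates 2 and 3 (adjusted p 0.0558 to 0.437). By limma-voom the calls of Sp100 (0.0717), Trim30a (0.0952), Ifi203 (0.161) and Ddx60 (0.0787) ended, and with the NAM reference those of Sp100 (0.0907) and Ifi203 (0.206). The list was not uniform: Ifi44 had 0.14 ± 0.18 (adjusted p = 0.863), Cxcl10 -0.13 ± 0.17 (0.856) and Isg15 -0.27 ± 0.21 (0.712), 3 members chosen after their values were seen.

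**Figure D4:**
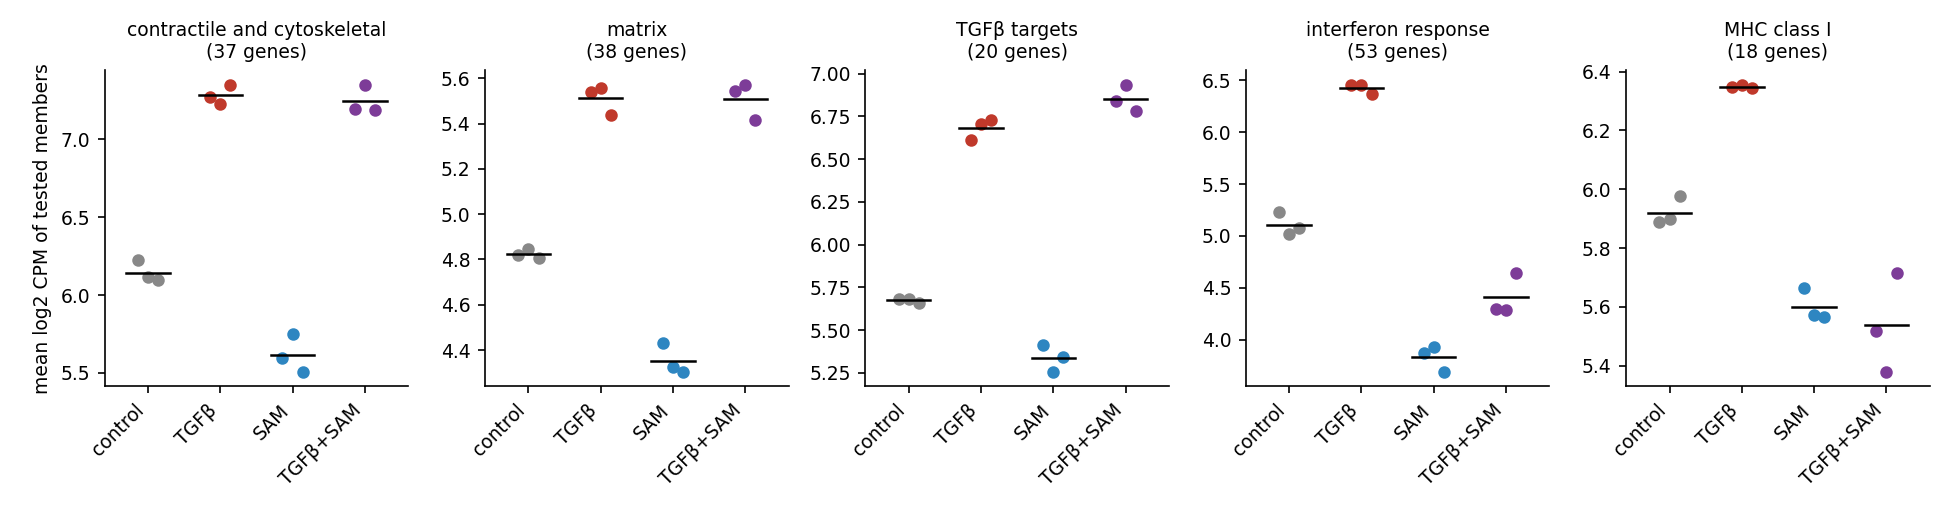
Mean log2 CPM of the tested members of 5 gene lists in each library, with 3 points per group and a bar at the group mean. Contractile and matrix lists reach similar levels with TGFβ and with TGFβ+SAM from a lower SAM level. The TGFβ target list lies between 6.61 and 6.73 with TGFβ and between 6.78 and 6.94 with both, also from a lower SAM level. The interferon list lies between 4.29 and 4.65 with both against 6.37 to 6.46 with TGFβ alone.

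Of 18 tested MHC class I antigen presentation genes, 1 was called (5.56%), against 1.43% of all tested genes. Their median interaction was -0.43, and 17 of the 18 values were negative, against 6772 of all 13469 tested genes. The called member was Psmb9, an immunoproteasome subunit, at -0.86 ± 0.21. That call ended without control replicate 2, TGFβ replicate 2, SAM replicate 2 or TGFβ+SAM replicate 1 (adjusted p 0.0629 to 0.108), with the NAM reference (0.396) and without SAM replicates 2 and 3 (0.295). H2-K1, a classical class I heavy chain, had -0.28 ± 0.11 (adjusted p = 0.281). Beside these genes, the summed level of 18 immune cell markers was 121 to 126 CPM in control, 63.8 to 89.0 with TGFβ, 134 to 149 with SAM and 93.3 to 104 with both, from Csf1r, Cd14 and Cd68. The leukocyte marker Ptprc had at most 2 reads in a group and Cd3e and Itgam had 0 reads. The part of immune cells in these results was not tested.

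Of 23 tested genes of tubule identity and transport, 3 were negative calls and 1, Lrp2, was positive. Of all tested genes 0.631% were called negative and 0.802% positive. The list's median TGFβ effect was -0.87 without SAM and -0.63 with SAM, and its median interaction was 0.01, with 12 positive and 11 negative values. Aqp1, the proximal tubule water channel, measured 986.0, 1023 and 1084 CPM in control, 112.2, 122.9 and 81.8 with TGFβ, 1237, 1311 and 1252 with SAM, and 52.1, 51.1 and 69.2 with both. The groups did not overlap, with SAM highest and TGFβ+SAM lowest. Its TGFβ effect was -3.28 without SAM and -4.46 with SAM, an interaction of -1.18 ± 0.15 (adjusted p = 1.51e-06). Mme, the brush border peptidase neprilysin, had TGFβ effects of -1.12 without SAM and -1.83 with SAM, an interaction of -0.72 ± 0.15 (adjusted p = 0.00499) that was not called without SAM replicates 2 and 3 (0.0911).

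Injury and epithelial genes gave positive calls. Clu, the secreted chaperone clusterin, had 0.88 ± 0.12 (adjusted p = 1.06e-05) and Krt8, an epithelial keratin that rises in injured tubules, 0.81 ± 0.15 (adjusted p = 0.00078). Havcr1, the injury marker KIM-1, had 1.08 ± 0.29 (adjusted p = 0.0496), a call kept only without SAM replicate 2 or TGFβ+SAM replicate 2 and lost in the other 10 fits (adjusted p up to 0.199). Anxa2, an annexin, had 0.50 ± 0.12 and lost the call without control replicate 1, control replicate 2, SAM replicate 2, TGFβ+SAM replicate 1 or TGFβ+SAM replicate 2 (0.0527 to 0.0696). Jup, plakoglobin of cell junctions, had 0.85 ± 0.21 and lost it without control replicate 1, TGFβ replicate 3, SAM replicate 3 or TGFβ+SAM replicate 1 (0.0509 to 0.19). The calls of Havcr1 (0.358), Anxa2 (0.102) and Jup (0.227) also ended without SAM replicates 2 and 3. With the NAM reference the calls of Havcr1 (0.575) and Jup (0.102) did, as did Havcr1 by limma-voom (0.0672) and Jup by DESeq2 (0.0921). In all, 4 of 25 injury genes (16%) and 2 of 24 epithelial genes (8.33%) were called, all positive, against 0.802% of all tested genes.

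Stress and metabolic genes supplied at most 3 negative calls per list, and 0.631% of all tested genes were called negative. Atf3, a stress-induced transcription factor, measured 23.5, 27.2 and 24.5 CPM in control, 10.8, 17.6 and 17.0 with TGFβ, 36.1, 31.6 and 29.3 with SAM, and 5.85, 4.24 and 3.57 with both. Its groups did not overlap, and its interaction was -2.10 ± 0.32 (adjusted p = 3.98e-05). Nampt, the rate-limiting enzyme that recycles nicotinamide to NAD, measured 131.9, 121.3 and 142.2 CPM in control, 72.5, 94.4 and 75.4 with TGFβ, 176.5, 179.6 and 198.4 with SAM, and 65.0, 49.9 and 54.5 with both. SAM libraries were highest and TGFβ+SAM libraries lowest without overlap, and the interaction was -1.01 ± 0.16 (adjusted p = 7.02e-05), the only call among 24 NAD genes. Slc3a2, a subunit of amino acid exchangers, had -0.63 ± 0.12 (adjusted p = 0.00102), a call that ended with the NAM reference (0.0879) and without SAM replicates 2 and 3 (0.0666). Among 39 antioxidant genes, Fth1 (ferritin heavy chain, -0.50 ± 0.12) lost its call without TGFβ replicate 1, TGFβ+SAM replicate 1 or TGFβ+SAM replicate 2 (adjusted p 0.055 to 0.0623). Srxn1 (sulfiredoxin, -0.78 ± 0.18) lost it without control replicate 2, control replicate 3, TGFβ replicate 1, TGFβ+SAM replicate 1 or TGFβ+SAM replicate 2 (0.0611 to 0.0854). Gclm (glutathione synthesis, -0.48 ± 0.12) lost it without control replicate 2, control replicate 3, TGFβ replicate 1, TGFβ replicate 2 or SAM replicate 1 (0.0694 to 0.112). None of these 3 antioxidant genes was called without SAM replicates 2 and 3 (0.102 to 0.224).

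The calls of 4 other large negative values ended in several fits. Cox7a1, a respiratory chain subunit, had -2.97 ± 0.71 and lost the call without control replicate 1, control replicate 3, TGFβ replicate 2, TGFβ+SAM replicate 1 or TGFβ+SAM replicate 2 (adjusted p 0.0506 to 0.0754). Cxcl5, a neutrophil chemokine, had -2.16 ± 0.57 and kept it only without control replicate 1, TGFβ replicate 3, SAM replicate 3 or TGFβ+SAM replicate 2 (up to 0.172 in the other 8 fits). Adra1b, an adrenergic receptor, had -2.13 ± 0.58 and kept it only without TGFβ replicate 3, SAM replicate 2 or TGFβ+SAM replicate 3 (up to 0.187 in the other 9). Chst1, a sulfotransferase, had -1.50 ± 0.39 and kept it only without control replicate 1, TGFβ replicate 2, TGFβ replicate 3 or TGFβ+SAM replicate 1 (up to 0.368 in the other 8). None of the 4 was called without SAM replicates 2 and 3 (0.092 to 0.234) or with the NAM reference (0.214 to 0.696), and by limma-voom Cxcl5 (0.205), Adra1b (0.163) and Chst1 (0.286) were not. Adra1b also missed with library totals (0.0572), RLE size factors (0.0516), a filter of 5 CPM in 3 libraries (0.0545) and only the 12 libraries (0.0577). It missed too with a replicate block over all libraries (0.0547) and with one nested in the SAM and other libraries (0.0694).

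Smaller lists gave few calls, and 1.43% of all tested genes were called. At that share lists of these lengths can hold 0 calls or 1, so such counts do not set a list apart. YAP targets gave 3 of 19, all positive: the nucleotidase Nt5e (0.82 ± 0.17, adjusted p = 0.00496), Gadd45b (0.86 ± 0.19; lost without TGFβ replicate 1, adjusted p 0.0586, or TGFβ+SAM replicate 2, 0.0683) and Ajuba (0.62 ± 0.15). Ajuba lost the call without control replicate 1, TGFβ replicate 1, TGFβ replicate 3, SAM replicate 1, TGFβ+SAM replicate 2 or TGFβ+SAM replicate 3 (0.0516 to 0.0872). The YAP list left out Ccn1 and Ccn2, which were called positive as members of the TGFβ target list. Bhlhe40, a repressor of the clock family, was the only call among 26 senescence genes (0.77 ± 0.16, adjusted p = 0.00403), while the cell cycle inhibitor Cdkn1a had -0.14 ± 0.14 (adjusted p = 0.806). Cyp51, of cholesterol synthesis, was the only call among 35 lipid synthesis genes (0.60 ± 0.13, adjusted p = 0.00784). Id2, a BMP-responsive inhibitor of differentiation, had -0.59 ± 0.13 and lost its call without TGFβ replicate 1 (0.0558) or SAM replicate 3 (0.0562). Calls were 0 of 53 for oxidative phosphorylation, a list that left out the called respiratory chain gene Cox7a1. They were 0 of 29 for fatty acid oxidation, 0 of 25 for the unfolded protein response and 0 of 8 for EMT factors. The methionine cycle and polyamines had 0 of 34 and epigenetic methyltransferases 0 of 45. At unadjusted p under 0.05, 1403 of all genes passed. Other lists gave 1 to 4 calls each. Of 25 senescence secretion genes 3 were positive, among them Inhba and Il1rl1, and 1 negative, Cxcl5, which was also the 1 call among 22 NF-κB genes. Among 45 integrated stress genes the calls were Atf3 and Slc3a2. Among 30 immediate early genes they were Atf3 and Ier3, an inducible survival factor (-0.77 ± 0.19), whose call ended without control replicate 2, control replicate 3, TGFβ replicate 2, SAM replicate 2 or TGFβ+SAM replicate 2 (0.0592 to 0.0955). Among 32 glycolysis genes Ldha and P4ha1 were positive and the enolase Eno1 negative (-0.71 ± 0.18), a call kept only without TGFβ replicate 3, SAM replicate 1, TGFβ+SAM replicate 1 or TGFβ+SAM replicate 3 (up to 0.12 in the other 8 fits). Among 36 p53 targets the growth arrest gene Gadd45g was positive (0.51 ± 0.12), a call lost without control replicate 2, TGFβ replicate 1, SAM replicate 2, TGFβ+SAM replicate 1 or TGFβ+SAM replicate 2 (0.0547 to 0.0818). The pro-apoptotic gene Bbc3 was negative (-0.62 ± 0.16), a call kept only without TGFβ replicate 3, TGFβ+SAM replicate 1 or TGFβ+SAM replicate 3 (up to 0.173 in the other 9). Of 46 proliferation genes Birc5, survivin, was called (0.51 ± 0.14), and only the fit without SAM replicate 2 kept that call (up to 0.191 in the other 11). Without SAM replicates 2 and 3 the calls of Nt5e, Gadd45b, Ajuba, Bhlhe40, Cyp51, Id2, Ier3, Eno1, Gadd45g, Bbc3 and Birc5 ended (adjusted p 0.0558 to 0.417). With the NAM reference those of Gadd45b, Ajuba, Bhlhe40, Cyp51, Id2, Eno1 and Birc5 did (0.05 to 0.555). Eno1 was not called without a low-count filter (0.0534), nor Bbc3 with library totals (0.0659).

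Nnmt itself measured 27.6, 33.2 and 30.2 CPM in control, 29.0, 35.7 and 28.5 with TGFβ, 21.9, 18.4 and 17.8 with SAM, and 16.7, 21.7 and 20.3 with both. SAM-treated libraries lay below the others with or without TGFβ, and the interaction was -0.02 ± 0.24 (adjusted p = 0.989).

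**Figure D5:**
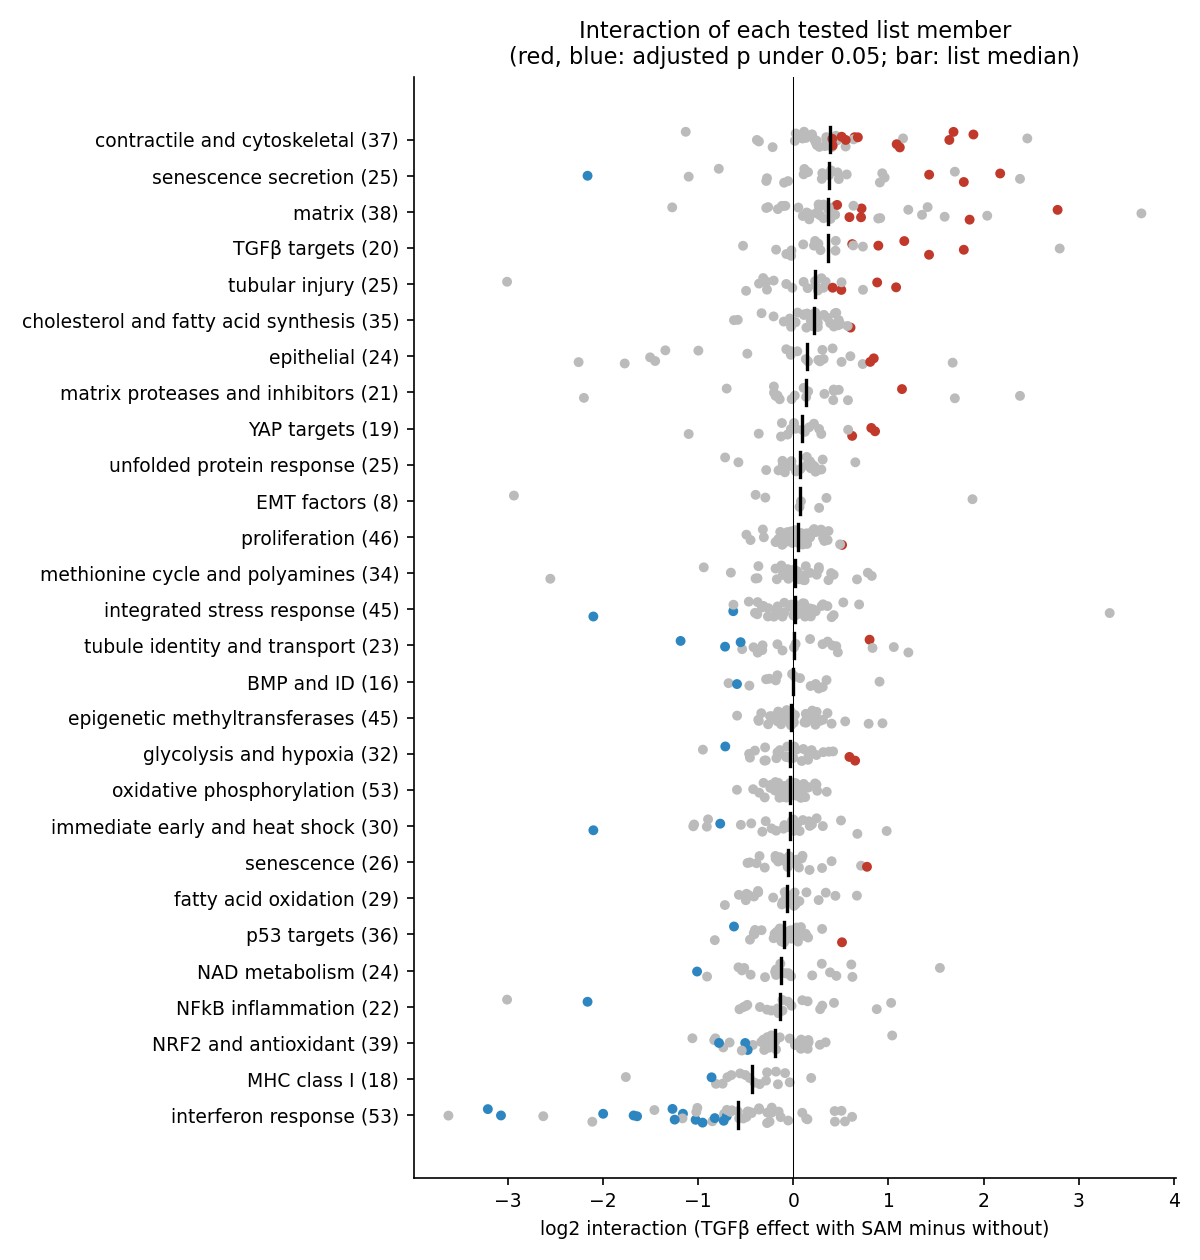
Log2 interaction of each tested member of 28 gene lists, ordered by list median (black bar), with members called positive in red, called negative in blue and not called in grey. Contractile, matrix and TGFβ target lists have medians of 0.36 to 0.38, and the interferon list has -0.58.

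A reference that shares no library with the interaction was taken from the NAM groups. In those libraries alone, TGFβ raised 339 genes outside the interferon list and 36 interferon genes by at least 2-fold, and lowered 471. The first set had a median TGFβ effect of 1.44 without SAM and 1.98 with SAM, a median interaction of 0.46, and 251 of 339 positive signs, against 6697 of all 13469 tested genes. It held 59 positive and 5 negative calls, and of all tested genes 0.802% were called positive and 0.631% negative. Among the 36 interferon genes the medians were 1.62 and 0.94, with 31 of 36 negative signs, against 6772 of all tested genes, and 0 positive and 9 negative calls. For the 471 lowered genes the medians were -1.31 and -1.54, with 320 negative signs, against 6772 of all 13469 tested genes. This set held 1 positive and 27 negative calls, against the same shares of 0.802% and 0.631%.

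The same contrast with NAM in place of SAM called 0 genes by edgeR, DESeq2 and limma-voom, with 462 genes at unadjusted p under 0.05 by edgeR. The TGFβ response with SAM minus that with NAM was called for 165 genes (1.23%), 93 positive (0.69%) and 72 negative (0.535%). Of the 193 genes of the SAM interaction 107 were called there too, in a comparison that uses the same SAM libraries. For Ifit3 that difference was -2.97 ± 0.19 (adjusted p = 3.9e-14, edgeR).

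The 5 called genes with means under 5 CPM fell outside the naming rule and are given by reads summed over the 3 libraries of a group. Tnfsf15, a TNF family cytokine, had 45 reads in control, 120 with TGFβ, 0 with SAM and 149 with both, and stayed called in all 12 fits (adjusted p = 0.000246). Cd40, a TNF receptor, had 23, 51, 0 and 74 reads in the same order. For Cmklr1, a chemerin receptor, the reads were 21, 78, 1 and 138, and for Il1rn, the interleukin 1 receptor antagonist, 48, 99, 2 and 115. Txk, a Tec family kinase, went the other way with 35, 68, 50 and 8 reads. A fitted fold against so few reads depends on the prior count and is not given, and the floor of 3 reads over a group covers counting error only. The calls of the other 4 ended in several fits: Cd40 was lost in 6 of the 12 fits, Cmklr1 in 7, Il1rn in 8 and Txk in 10, with adjusted p up to 0.195, 0.112, 0.137 and 0.188. By limma-voom and without SAM replicates 2 and 3 none of the 4 was called (0.101 to 0.443), and with the NAM reference Cd40 (0.157) and Il1rn (0.115) were not. Cd40 kept its call without control replicate 2, control replicate 3, TGFβ replicate 2, TGFβ replicate 3, TGFβ+SAM replicate 1 or TGFβ+SAM replicate 3, and Txk without TGFβ replicate 3 or TGFβ+SAM replicate 3. Cmklr1 kept it without control replicate 3, TGFβ replicate 2, TGFβ replicate 3, SAM replicate 1 or TGFβ+SAM replicate 3, and Il1rn without control replicate 1, TGFβ replicate 3, SAM replicate 2 or TGFβ+SAM replicate 3.

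Measures of the libraries moved with the groups. Reads outside genes made up 26.6 ± 0.55% (SD, n = 3) in control, 25.4 ± 0.50% with TGFβ, 28.0 ± 0.20% with SAM and 26.3 ± 0.31% with both. Mitochondrial reads made up 9.55%, 7.23%, 10.3% and 7.17% on average in the same order. Their part in the interaction was not tested.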

How the data were processed

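The authors deposited raw counts, whole reads for each of 55487 genes in 18 libraries. The submitters' processing notes name the tools STAR and HTSeq. Those notes give the build GRCh38, whereas all gene identifiers are mouse. Versions and strand setting are not given in the sources used here, so overlapping antisense genes cannot be told apart. Symbols, matched for 55141 identifiers, and coordinates come from GENCODE M21 (GRCm38). The 5 special rows were dropped.

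Genes were kept with filterByExpr (minimum count 10). All 18 libraries entered one fit with a term per group in edgeR 4.0.16 (R 4.3.3), scaled by TMM, with two-sided quasi-likelihood F tests of the contrasts. DESeq2 1.42.0 and limma 3.58.1 (voom) were alternatives, beside other scalings, filters, library sets and leaving out each library in turn. Groups came from titles.

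Named genes were, among called genes with a mean of at least 5 CPM and a named symbol, the 15 with the largest interaction in each direction, up to 4 per gene list with the smallest p, and Nnmt; other called members were added to complete a list. The members, the 33 lists and the tests were chosen with earlier results of these data known. Some genes that met the rule are not reported here.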

Additional observations from a re-analysis of the deposited data

Results flagged for a closer look

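The TGFβ effect differed between cells with and without SAM, by the test of the interaction, for 193 genes, and between cells with SAM and cells with NAM for 165 genes. For 5 genes the TGFβ effects were called in opposite directions with and without SAM: Ifit3b (log2 interaction -3.21), Ifit3 (-3.07), Oas3 (-2.0), Iigp1 (-1.64) and Uba7 (-1.27). Reads outside genes, which no comparison used as expression, made up 28.0% of the reads of the SAM libraries against 26.6% in control.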

How the results depend on the processing

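No called gene changed direction under any alternative. Of the 193 calls, 181 were also made by DESeq2, 158 by limma-voom, 187 with other size factors (RLE), 107 with the NAM libraries as reference and 88 in each of the 12 fits that left out 1 library. Over those fits positive calls ranged from 75 to 122 and negative calls from 52 to 115; the lowest negative counts, 52 and 54, came without control replicate 2 and without TGFβ+SAM replicate 2. Without NAM replicate 3 and TGFβ+NAM replicate 1 there were 166 positive and 119 negative calls. Without both SAM libraries with conflicting tags there were 41 positive and 22 negative calls, 1094 and 1164 calls for TGFβ+SAM against SAM, 37 and 23 for the SAM response minus the NAM response, and 2 matrix, 7 contractile and 6 interferon genes; 57 of the 193 remained. The positive calls of the SAM minus NAM response were 140 with library totals, 153 by DESeq2, 153 without a filter and 152 without the 2 NAM libraries, and its negative calls 112 by DESeq2; over the 12 fits they ranged from 67 to 100 and from 49 to 81. The sign of the Nnmt interaction, which was not called, turned with library totals (0.01), the NAM reference (0.17), and without control replicate 1, TGFβ replicate 2, SAM replicate 1 or TGFβ+SAM replicate 1 (0.04 to 0.09); the 12 fits ranged from -0.10 to 0.09. Causes were not tested.

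Replicate numbers are not stated to pair libraries, and same-numbered libraries did not deviate together (r from -0.043 to 0.031 over 18 pairs). A replicate block gave 110 positive and 76 negative calls, and a block nested in the SAM and other libraries 112 and 91. Of the 193 calls, 179 remained with the first and 177 with the nested block. Among genes described above, the first ended the calls of Adra1b, Birc5 and Txk. The nested block ended those of Adra1b, Adcy7, Bbc3, Eno1, Cd40, Cmklr1 and Txk. Depth limits low genes: 5 called genes had means under 5 CPM.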
